A study of Homo sapiens with 12 samples.

Results

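The miR-532 to miR-660 cluster is a run of 8 microRNA (miRNA) hairpins on chromosome X, all on the + strand inside an intron of *CLCN5*, which encodes a chloride/proton exchanger of endosomes. Its 8 mature miRNAs described here were taken by name from the deposited tables: hsa-miR-532-5p, hsa-miR-532-3p, hsa-miR-188-5p, hsa-miR-500a-3p, hsa-miR-362-5p, hsa-miR-501-3p, hsa-miR-502-3p and hsa-miR-660-5p, which are 8 of 2652 mature miRNAs listed. The other 8 arms of the same hairpins were also read, for comparison.

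The study asked whether splicing inhibition alters the making of new miRNAs. Huh7 cells, a human hepatocellular carcinoma line, were given 4-thiouridine (4SU), a uridine analogue that enters RNA as it is transcribed and, after alkylation, is read as C in place of T (SLAMseq). *Control* cells received DMSO without 4SU, *DMSO* cells received DMSO with 500 µM 4SU, and *PlaB* cells received Pladienolide B, an inhibitor of the SF3B1 subunit of the U2 snRNP, with 500 µM 4SU, all for 4 h and with 4 libraries per group. The labels give the Pladienolide B dose as 500 µM. DMSO replicates 1 and 2 each join reads of 3 sequencing runs. Both gave few reads at first, so their existing libraries were re-amplified and new libraries were also prepared. All groups are 1 cell line. The libraries alone do not separate a change in newly made RNA per cell from a change in the number of cells that made it. The paper reports, from separate assays, no effect of Pladienolide B on cell viability at the dose in its methods. It also reports none for the uridine analogue at the dose and time used for labelling.

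miRNAs are cut from a longer primary transcript in the nucleus by Drosha and DGCR8, and then by Dicer into a duplex of a 5p and a 3p arm, of which usually only a single arm is kept in Argonaute. The kept arm pairs with target mRNAs mainly through its seed, bases 2 to 8. Hairpins of an intronic cluster can share the primary transcript of their host gene. They are then made from the same RNA while its intron is still present or after it has been removed. The primary transcript of this cluster was not measured in these libraries.

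Total reads on mature miRNAs were between 1667668 and 2393680 in Control, 1968612 and 3880241 in DMSO, and 1522210 and 1979696 in PlaB. The hepatocyte miRNA miR-122-5p had 55353 to 105331 CPM (reads as a share of all miRNA reads in the library, times 1000000), miR-192-5p 14346 to 21408 CPM and miR-194-5p 21871 to 32713 CPM, while the summed level of 5 blood cell miRNAs did not exceed 7.88 CPM in any library. The defining markers of the labelled cell type were thus present and those of blood cells near 0.

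The annotation (GRCh38, GENCODE version 44) places the hairpins at chrX:50003148-50014683, a span of 11536 bases. MIR532 (chrX:50003148-50003238) comes first, with MIR188 264 bases after it at chrX:50003503-50003588. MIR500A (chrX:50008431-50008514), MIR362 (chrX:50008964-50009028), MIR501 (chrX:50009722-50009805) and MIR500B (chrX:50010672-50010750) form a group in the middle, and MIR660 (chrX:50013241-50013337) and MIR502 (chrX:50014598-50014683) come last. Of 9 annotated transcripts of *CLCN5* (chrX:49922596-50099235), 3 held the whole cluster within a single intron of 117001 bases and the other 6 started after it. No exon of another transcript overlapped a hairpin, so the hairpins lay in a single intron rather than in several.

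The mature sequences are shown because the labelling signal can only arise at their U positions and because several members are near copies of each other. They are from RefSeq (GRCh38.p14), which had 7 of the 8 members, and capitals mark the seed.
miR-532-5p: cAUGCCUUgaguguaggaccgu
miR-532-3p: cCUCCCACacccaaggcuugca
miR-188-5p: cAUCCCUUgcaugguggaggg
miR-500a-3p: aUGCACCUgggcaaggauucug
miR-362-5p: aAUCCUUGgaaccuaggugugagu
miR-501-3p: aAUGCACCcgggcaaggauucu
miR-502-3p: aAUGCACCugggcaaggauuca

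miR-501-3p and miR-502-3p had the same seed, and no other human mature miRNA in that table shared it. miR-500a-3p carried the same run of letters, but started 1 base later, so that its seed differed. Counted from 1 at the 5′ end of miR-501-3p, the substitutions to miR-502-3p were C9U and U22A, and over the 21 bases aligned with miR-500a-3p the only substitution was C9U. A T>C conversion at this site in miR-502-3p or miR-500a-3p gives the letter of miR-501-3p; its part in the values below was not tested. The same 3 sequences are repeated with only that site in capitals.
miR-501-3p: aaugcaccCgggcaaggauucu
miR-502-3p: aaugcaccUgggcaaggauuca
miR-500a-3p: augcaccUgggcaaggauucug

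The members held between 3 U (miR-532-3p) and 7 U (miR-362-5p and miR-660-5p). Reads that mapped to more than 1 place were kept by the authors. In miR-502-3p they made up 8.37% to 9.83% of reads per group and in miR-500a-3p 5.77% to 7.21%, and both miRNAs had the same number of them in every library, whereas miR-501-3p had none. All reads of miR-500a-5p were also counted for miR-500b-5p, so that these arms give a single value.

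The hairpin of MIR532, which gave both a member with many reads and a member with few, is shown with its 5p and 3p arms in capitals (91 bases, + strand).
MIR532: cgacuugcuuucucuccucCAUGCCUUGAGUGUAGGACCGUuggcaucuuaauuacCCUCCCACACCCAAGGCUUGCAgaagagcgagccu

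Reads of the cluster differed little between the groups. Of the members, 6 passed the limit of the Initial miRNA Dataset (over 100 CPM in all 12 libraries and present in MirGeneDB, 143 miRNAs), and miR-532-3p and miR-188-5p did not. miR-532-5p had the highest level, at 582 ± 29.4 CPM (Control), 597 ± 85.8 CPM (DMSO) and 567 ± 85.2 CPM (PlaB; mean ± SD of 4 libraries), and ranked 87 of 143 by its level in DMSO. miR-362-5p had 355 ± 30.0, 447 ± 17.8 and 380 ± 25.4 CPM in the same order, and miR-500a-3p 415 ± 37.9, 394 ± 45.7 and 361 ± 21.1 CPM.

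The other members over the limit were lower. miR-502-3p had 250 ± 26.2 CPM in Control, 283 ± 22.5 CPM in DMSO and 252 ± 30.3 CPM in PlaB. miR-660-5p had 235 ± 32.9, 248 ± 51.9 and 233 ± 35.7 CPM, and miR-501-3p 204 ± 32.5, 221 ± 17.7 and 200 ± 26.2 CPM. The levels of miR-660-5p overlapped those of both miR-502-3p and miR-501-3p in every group, and so did those of miR-362-5p and miR-500a-3p. Under the limit, miR-532-3p had 64.1 ± 13.6 CPM in DMSO and miR-188-5p 23.3 ± 4.16 CPM. The summed level of the 8 members was 2120 ± 107 CPM in Control, 2277 ± 168 CPM in DMSO and 2063 ± 113 CPM in PlaB.

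**Figure D1:**
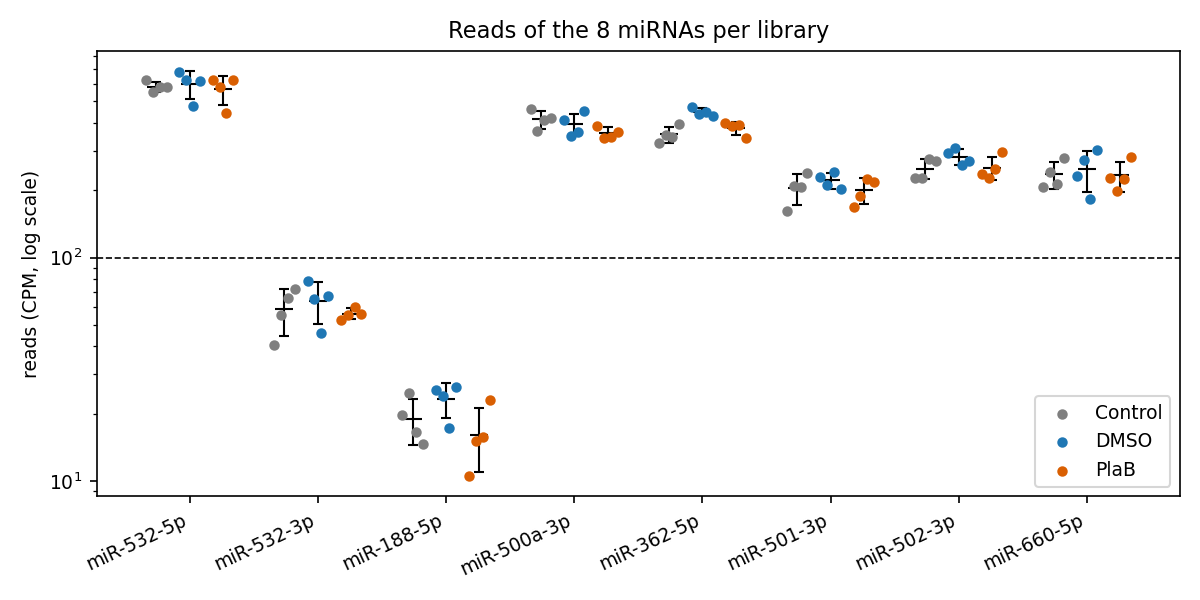
Reads of the 8 miRNAs in CPM (log scale) in each of the 12 libraries, with the 4 points of a group ordered by replicate number and black bars for mean ± SD (n = 4). The groups overlap for each miRNA apart from miR-362-5p, whose 4 DMSO values (428 to 470 CPM) are above those of Control (326 to 397 CPM) and of PlaB (342 to 398 CPM), and the dashed line marks 100 CPM.

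None of the 6 members passed the test of reads (edgeR's quasi-likelihood test, Benjamini-Hochberg adjusted p under 0.05) between DMSO and Control, where 4.20% of the 143 miRNAs did, or between PlaB and DMSO, where 0.699% did. At an unadjusted p under 0.05 there was 1 member in each comparison, miR-362-5p, and DESeq2 called 1 member in the first and 0 in the second. The median log2 fold change of the 6 members was 0.11 when DMSO was set against Control and -0.15 when PlaB was set against DMSO, beside 0.05 and -0.04 over all 143. In DMSO the reads of miR-362-5p, a miRNA reported to repress the deubiquitinase *CYLD*, were 470, 440, 450 and 428 CPM in replicates 1 to 4, and in Control they were 326, 353, 344 and 397 CPM. Every DMSO value was above every Control value, yet the log2 fold change of 0.34 ± 0.11 (SE) missed the threshold in edgeR (adjusted p = 0.141). With the replicate number as a block it passed (log2 fold change 0.35, adjusted p = 0.0279), and there 24 of the 143 miRNAs passed in all. In DESeq2 it passed too (adjusted p = 0.0176), where 10 of the 143 did. In PlaB it had 398, 386, 392 and 342 CPM, each below every DMSO value, and the log2 fold change from DMSO was -0.24 ± 0.11 (SE; adjusted p = 0.921 in edgeR).

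The T>C conversion rate, the share of covered T positions read as C, measures how much of a miRNA carries 4SU, above the rate of errors and variants that Control shows. After 4 h of labelling, all 6 members of the Initial miRNA Dataset passed the edgeR test of a higher rate than in Control. At the same threshold (adjusted p under 0.05), 82.5% of the 143 miRNAs (118) passed. This fit did not pair same-numbered libraries, and with the replicate block 5 of the 6 and 114 of the 143 passed. Every DMSO rate was above every Control rate in 5 of the 6, and in 70.6% of the 143. Their median DMSO rate was 0.373%, beside 0.187% over the 143 miRNAs. Among them miR-501-3p had the highest mean rate in DMSO and miR-532-5p, the member with most reads, the lowest mean among these 6.

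When splicing was inhibited, 5 of the 6 members passed the edgeR test of a lower rate than in DMSO. Of the 143 miRNAs, 48.3% (69) passed. The remaining member, miR-660-5p, also had a lower mean rate in PlaB (0.0998%) than in DMSO (0.222%). Every PlaB rate was below every DMSO rate in the same 5, and in 46.2% of the 143. The median log2 fold change was -2.62 over the 6 members and -1.23 over the 143 miRNAs. No member passed the test of PlaB against Control (0 of 6, against 53.8% of the 143 higher; 1 of 6 at an unadjusted p under 0.05 and 1 of 6 in DESeq2, both miR-500a-3p). The count of 5 fell to 3 without DMSO replicate 2, DMSO replicate 3, PlaB replicate 2 or PlaB replicate 4, and to 1, miR-501-3p, without DMSO replicates 1 and 2 together. The covered T positions of the 8 members summed to 96841 in Control, 142126 in DMSO and 80241 in PlaB, so that PlaB was the shallowest group.

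hsa-miR-501-3p, reported to act on the glutamate receptor subunit *GRIA1* in neurons, had 24, 18, 18 and 12 conversions in DMSO replicates 1 to 4, which are rates of 0.681%, 0.662%, 0.946% and 0.764%. In PlaB it had 0, 2, 0 and 0 conversions, and the 2 in PlaB replicate 2 were a rate of 0.135% (95% Wilson interval 0.0371 to 0.491%). No Control library had a conversion, 0 of 6788 covered T, which allows a rate of up to 0.0442%. All 4 DMSO libraries were therefore far above the other 8. The DMSO rate of 0.763% ± 0.130 was at least 17.3-fold higher than the Control limit of 3 conversions over the group (adjusted p = 3.75e-05, edgeR). In edgeR the PlaB rate was lower than that of DMSO by a log2 fold change of -4.17 ± 1.12 (SE), with an adjusted p of 0.00201, and this held in all 19 alternatives tried.

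hsa-miR-502-3p, which shares the seed of miR-501-3p, had 32, 17, 8 and 19 conversions in DMSO replicates 1 to 4, with rates of 0.706%, 0.420%, 0.381% and 0.891%. Its PlaB rates were 0, 0, 0.0631% and 0.177%, and its Control rates 0.0662%, 0, 0 and 0. The DMSO libraries did not overlap the others, though they varied among themselves more than for miR-501-3p. In edgeR labelling raised it by 5.07 ± 1.20 on the log2 scale (adjusted p = 0.000175), and with PlaB it was lower than in DMSO, at -3.06 ± 0.98 (adjusted p = 0.00900). The latter was lost without DMSO replicates 1 and 2 together (adjusted p = 0.0549) and with no filter on low counts (0.0827).

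hsa-miR-500a-3p differs from this pair mainly in where it starts. It had 28, 24, 27 and 13 conversions in DMSO, with rates of 0.357%, 0.427%, 0.740% and 0.296%. In PlaB the rates were 0.0342%, 0, 0.110% and 0.203%, and in Control 0.0525%, 0, 0 and 0. PlaB replicate 4 lay highest of the PlaB libraries and still below every DMSO library. Labelling raised the rate by 4.91 ± 1.04 on the log2 scale (adjusted p = 4.05e-05 in edgeR). The log2 fold change from DMSO to PlaB was -2.33 ± 0.84 (SE) in edgeR, with an adjusted p of 0.0212, and the call was lost without DMSO replicate 3 (adjusted p = 0.0893), without PlaB replicate 2 (0.0631) and without DMSO replicates 1 and 2 together (0.0967), and also among the miRNAs passing filterByExpr (0.0658) and with no filter (0.189).

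hsa-miR-362-5p had 47, 35, 17 and 10 conversions in DMSO, with rates of 0.373%, 0.352%, 0.269% and 0.172%. It also had 7 conversions in Control replicate 2 and 6 in Control replicate 4, rates of 0.120% and 0.0912%, and none in the other two. In PlaB the rates were 0.0953%, 0.0943%, 0.140% and 0. The PlaB values thus reached a little above those of Control and lay below those of DMSO. In edgeR DMSO was higher than Control by 2.29 ± 0.77 on the log2 scale (adjusted p = 0.00666), which was lost without DMSO replicates 1 and 2 together (0.0959). From DMSO to PlaB the log2 fold change was -1.82 ± 0.75 (SE) in edgeR, with an adjusted p of 0.0411, whereas with the replicate block it did not pass (-1.85, adjusted p = 0.0517). This was the least stable of the 5 calls, past the threshold in 9 of 19 alternatives, and it was lost without DMSO replicate 1, 2 or 3 or without PlaB replicate 2 or 4 (adjusted p from 0.0544 to 0.126). It was also lost without DMSO replicates 1 and 2 together (0.322), on reads with a conversion (0.111), among the miRNAs passing filterByExpr (0.102) and with no filter (0.288).

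hsa-miR-532-5p, reported to repress the transcription factor *RUNX3*, had the lowest mean DMSO rate of the 6 members over 100 CPM and the smallest SD (0.139% ± 0.0214), with rates of 0.116%, 0.157%, 0.157% and 0.126% in replicates 1 to 4, from 18, 19, 9 and 9 conversions. The PlaB rates were 0, 0.0441%, 0.0238% and 0, and the Control rates 0, 0, 0.0481% and 0.0122%. PlaB and Control covered nearly the same range, with 4 conversions in each group, and DMSO was higher than Control by 3.13 ± 1.04 on the log2 scale (adjusted p = 0.00624 in edgeR). edgeR put the log2 fold change from DMSO to PlaB at -2.92 ± 1.05 (SE), with an adjusted p of 0.0208. This call was lost without DMSO replicate 2 (adjusted p = 0.0525), PlaB replicate 1 (0.0525) or PlaB replicate 4 (0.0625), and without DMSO replicates 1 and 2 together (0.103), and also among the miRNAs passing filterByExpr (0.0639) and with no filter (0.185).

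hsa-miR-660-5p, reported to repress *MDM2*, was the member over 100 CPM that did not pass. Its DMSO rates were 0.446%, 0.0320%, 0.193% and 0.217% in replicates 1 to 4, and 28 of its 44 DMSO conversions came from replicate 1. The PlaB rates were 0.0416%, 0.0364%, 0.242% and 0.0795%, so that PlaB replicate 3 was above DMSO replicates 2, 3 and 4. DMSO replicate 2 also lay within the Control range of 0 to 0.0739%. In edgeR the log2 fold change from DMSO to PlaB was -1.16 ± 0.93 (SE), with an adjusted p of 0.321. From Control to DMSO it was 2.45 ± 1.02 (adjusted p = 0.0255), but it was lost without DMSO replicate 1 (adjusted p = 0.139), without Control replicate 4 (0.0892) and with the replicate block (2.24, adjusted p = 0.0701). It was also lost without DMSO replicates 1 and 2 together (0.104), among the miRNAs passing filterByExpr (0.0566) and with no filter (0.159).

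**Figure D2:**
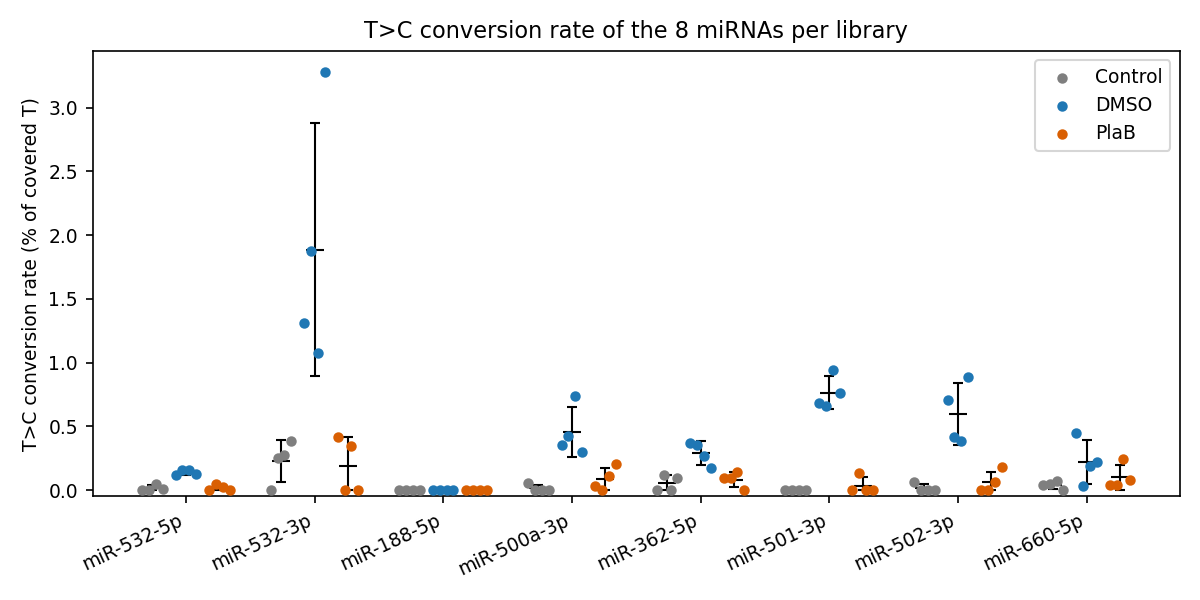
T>C conversion rate, in % of covered T positions, of the 8 miRNAs in each of the 12 libraries, with black bars for mean ± SD (n = 4) whose lower ends stop at 0. The DMSO points of miR-532-3p reach 3.28% and those of miR-501-3p lie from 0.662% to 0.946%, the PlaB points of every miRNA stay at or under 0.417%, and miR-188-5p is at 0 throughout.

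Both members under 100 CPM were tested in a wider set of 537 miRNAs that passed edgeR's filterByExpr. hsa-miR-532-3p had 12, 12, 3 and 13 conversions in DMSO replicates 1 to 4, with rates of 1.31%, 1.88%, 1.08% and 3.28%. The Control rates were 0, 0.255%, 0.278% and 0.385%, and the PlaB rates 0.417%, 0, 0.347% and 0. The DMSO libraries lay above all others, but with only 2229 covered T in the group neither comparison passed in edgeR. The log2 fold change from Control to DMSO was 2.74 ± 1.16 (SE; adjusted p = 0.0550), and from DMSO to PlaB -3.22 ± 1.27 (adjusted p = 0.0800). In DESeq2 both passed (adjusted p = 0.0241 and 0.0283), and the first also did in 5 other alternatives. hsa-miR-188-5p had no conversion in any of the 12 libraries. Its 0 of 1325 covered T in DMSO allows a rate of up to 0.226%, which is above the median DMSO rate of the Initial miRNA Dataset (0.187%) and below that of the 6 members over 100 CPM (0.373%). Of these 6, miR-532-5p (0.139%) and miR-660-5p (0.222%) had mean DMSO rates under that limit, and the others were above it.

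The arms of 1 hairpin were not labelled alike. In DMSO the rate of miR-532-3p was between 6.83 and 26.1 times that of miR-532-5p in the same library, although miR-532-5p had 9.32 times the reads. Summed over the DMSO libraries, the rate was 1.79% for miR-532-3p (40 of 2229 covered T, 95% Wilson interval 1.32 to 2.43%) and 0.136% for miR-532-5p (55 of 40588, 0.104 to 0.176%). For MIR660 too the arm with fewer reads had the higher rate, with 9 conversions in 490 covered T for miR-660-3p (1.84%) and 44 in 19267 for miR-660-5p (0.228%). The order was the other way for MIR501, MIR362 and MIR502. miR-501-5p had 3 conversions in 4606 covered T (0.0651%) beside 0.741% for miR-501-3p, miR-362-3p had 2 in 3125 (0.0640%) beside 0.314% for miR-362-5p, and miR-502-5p had 7 in 2967 (0.236%) beside 0.593% for miR-502-3p. For MIR500A the arms were close, at 0.476% for miR-500a-5p and 0.428% for miR-500a-3p, but the reads of miR-500a-5p cannot be told from those of miR-500b-5p. These intervals cover counting error only, and the difference between arms was not tested.

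**Figure D3:**
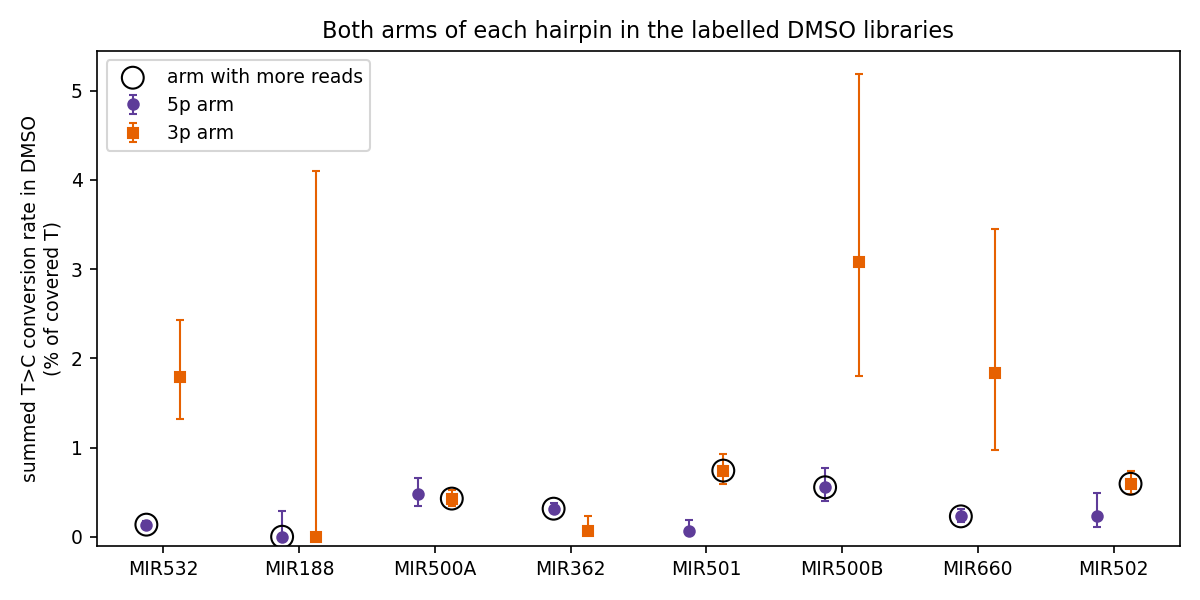
T>C conversion rate summed over the 4 DMSO libraries (% of covered T positions) for the 5p and 3p arm of each hairpin, with 95% Wilson intervals that cover counting error only, and a ring around the arm with more reads. The ringed arm is the lower of the pair in 4 hairpins (MIR532, MIR500B, MIR660 and, by a small margin, MIR500A) and the higher in 3 (MIR362, MIR501 and MIR502), and both arms of MIR188 are at 0. The 5p arms of MIR500A and MIR500B hold the same reads, so these hairpins are not separate cases. Of the 13 conversions of miR-500b-3p, 12 are from DMSO replicate 1.

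The more abundant arm was the same in all 3 groups for every hairpin: the 5p arm for MIR532, MIR188, MIR362, MIR500B and MIR660, and the 3p arm for MIR500A, MIR501 and MIR502. For MIR500B this rests on the reads that miR-500b-5p shares with miR-500a-5p. Of the 8 other arms, 7 passed filterByExpr. Together with both low members, 0 of 9 passed the test of a lower rate in PlaB than in DMSO in the wider set (11.0% of 537 did). At an unadjusted p under 0.05 there were 3 of 9, and DESeq2 called the same 3 and gave no adjusted p for the others. They were miR-532-3p, miR-500a-5p and miR-500b-5p, and since the last pair holds the same reads they are 2 of 8 separate values. For DMSO against Control, 1 of 9 passed the test of a higher rate (32.4% of 537 did). In that of changed reads 1 of 9 passed (5.96% of 537 did), and both were miR-500b-3p. For PlaB against DMSO none passed the test of changed reads (0.372% of 537 did, and 0 of 9 at an unadjusted p under 0.05).

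**Figure D4:**
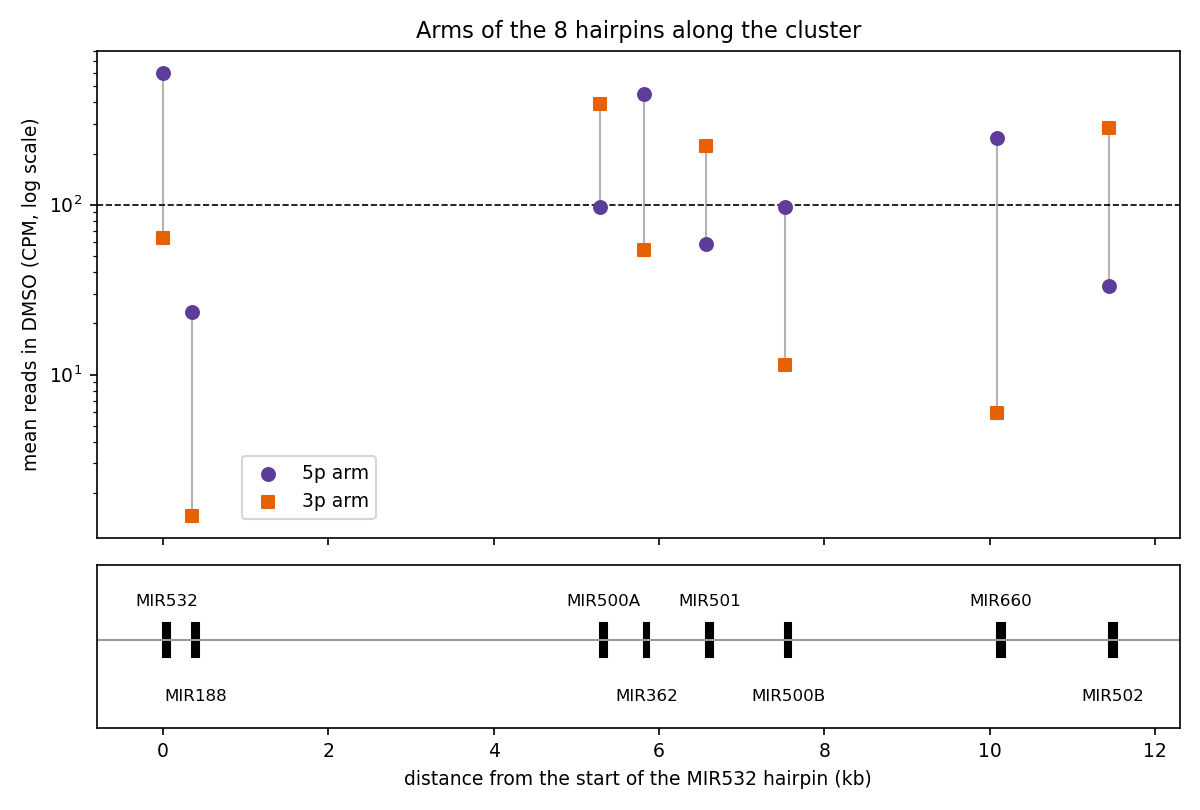
Mean reads in DMSO (CPM, log scale, n = 4) of the 5p and 3p arm of each hairpin, plotted at the distance of the hairpin from the start of MIR532 in kb, above a map of the hairpins drawn to scale. The arm over 100 CPM (dashed line) is the 5p arm for MIR532, MIR362 and MIR660 and the 3p arm for MIR500A, MIR501 and MIR502, and MIR188 and MIR500B have no arm over the line.

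miR-500b-3p, the arm of MIR500B with fewer reads, had 28.8, 19.6, 37.0 and 34.3 CPM in Control replicates 1 to 4. In DMSO it had 17.5, 13.4, 10.3 and 4.06 CPM, and in PlaB 15.8, 12.1, 21.3 and 9.94 CPM. Every DMSO library was below every Control library with a log2 fold change of -1.37 ± 0.38 (SE) in edgeR (adjusted p = 0.0400), and the call held in 9 of 18 alternatives and was lost without Control replicate 1, 3 or 4, DMSO replicate 2, 3 or 4, or PlaB replicate 1 or 2 (adjusted p from 0.0550 to 0.126), and with Control and DMSO fitted alone (0.0533). Its higher rate in DMSO rested on replicate 1, which held 12 of its 13 conversions (adjusted p = 0.0285 in edgeR, and 0.385 without that library), and was also lost without any 1 of the Control libraries (0.0566 to 0.0722). Over the 19 bases aligned, its only substitution from miR-501-3p was G10A, counted in miR-501-3p.

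Because single members had few conversions, the conversions and covered T positions were pooled over the 8 members. The pooled rate was 0.0209%, 0.0372%, 0.0286% and 0.0301% in Control replicates 1 to 4. In DMSO it was 0.365%, 0.304%, 0.383% and 0.328%, and in PlaB 0.0391%, 0.0501%, 0.105% and 0.0602%. The groups were well apart between DMSO and the others, and every PlaB library was above every Control library, although the 95% Wilson intervals of single libraries overlapped (0.0190 to 0.0808% in PlaB replicate 1 and 0.0202 to 0.0684% in Control replicate 2).

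Over the 4 libraries of a group the pooled rate had a mean ± SD of 0.0292% ± 0.00666 (Control), 0.345% ± 0.0354 (DMSO) and 0.0636% ± 0.0290 (PlaB), so that DMSO was 5.42 times PlaB. After Control was subtracted, the PlaB rate was 0.109 of the DMSO rate, and replicate by replicate 0.0529, 0.0483, 0.216 and 0.101 (SD 0.0781). The ratio was 0.0651 without PlaB replicate 3, 0.0508 when the members were weighted equally and 0.184 when Control was not subtracted. Leaving out DMSO replicates 1 and 2, which were deeper, gave 0.105, and leaving out any single member gave 0.0877 to 0.123. miR-362-5p supplied 22.3% of the pooled DMSO conversions, miR-500a-3p 18.9%, miR-502-3p 15.6% and miR-501-3p 14.8%, whereas miR-532-5p supplied 28.6% of the covered T and 11.3% of the conversions.

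Among the 118 miRNAs of the Initial miRNA Dataset that were labelled in DMSO, the median PlaB/DMSO ratio after subtraction was 0.318, and 32 lay under 0.2. Of the 6 members, 5 lay under 0.2. miR-532-5p had a ratio of 0.0153 (rank 7 from the lowest), miR-501-3p 0.0443 (rank 10), miR-502-3p 0.0747 (rank 13), miR-362-5p 0.124 (rank 17) and miR-500a-3p 0.167 (rank 24), while miR-660-5p had 0.324 (rank 62). The lowest of these rest on few conversions. miR-532-5p had 4 in PlaB and 4 in Control, and miR-501-3p 2 and 0. The order of the members was not tested.

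For comparison, 2 other clusters were pooled in the same way. The arms of miR-106b, miR-93 and miR-25, 3 hairpins in an intron of *MCM7*, had a pooled rate of 0.331% ± 0.0352 in DMSO and 0.270% ± 0.0247 in PlaB, a ratio of 0.707 after subtraction of a Control rate of 0.123%, and PlaB was the lower in 4 of 4 same-numbered pairs. The miR-424, miR-503, miR-542 and miR-450 cluster, also on chromosome X, had 0.147% ± 0.0685 and 0.119% ± 0.0696, a ratio of 0.789, and PlaB was the lower in 3 of 4 pairs. The other 137 miRNAs of the Initial miRNA Dataset pooled together had 0.264% ± 0.0216 in DMSO and 0.150% ± 0.0147 in PlaB, a ratio of 0.520. Before subtraction, the miR-532 to miR-660 cluster had a DMSO rate in the range of the *MCM7* cluster, but its Control rate was 0.0292% beside 0.123%. Its mean PlaB rate was below that of all 3. Its PlaB libraries (0.0391 to 0.105%) overlapped those of the miR-424 cluster (0.0460 to 0.210%), and the difference between clusters was not tested.

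**Figure D5:**
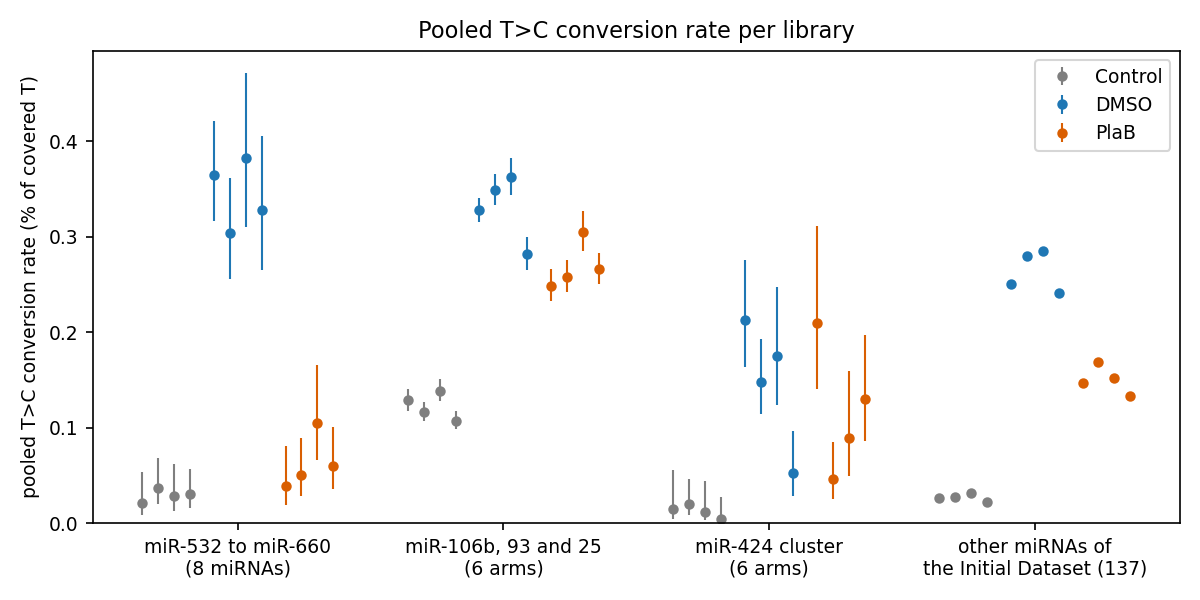
Pooled T>C conversion rate (% of covered T positions) in each library for the 8 members, 6 arms of the *MCM7* cluster, 6 arms of the miR-424 cluster and 137 other miRNAs of the Initial miRNA Dataset, with 95% Wilson intervals that cover counting error only. The PlaB points of the miR-532 to miR-660 cluster lie from 0.0391% to 0.105% and its DMSO points from 0.304% to 0.383%, whereas the ranges of PlaB and DMSO overlap in the other clusters, although PlaB is the lower in 4 of 4 same-numbered pairs of the *MCM7* cluster and in 3 of 4 of the miR-424 cluster.

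The 5 miRNAs of the other 137 whose log2 rates over the 12 libraries were nearest to those of the pooled cluster were miR-122-5p (mean absolute difference 0.39), miR-128-3p (0.41), miR-92a-3p (0.54), miR-20a-5p (0.56) and miR-183-5p (0.57). Their PlaB/DMSO ratios after subtraction were 0.135, 0.125, 0.263, 0.225 and 0.204 in that order. They were chosen by rates that include the DMSO and PlaB libraries, so low ratios follow from the choice.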

How the data were processed

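Small RNA libraries came from 4 independent experiments in Huh7 cells, each with all 3 conditions. The authors trimmed reads with Trim Galore and ran the nf-core slamseq workflow (version 1.0.0, SLAM-DUNK) on GRCh38 with miRBase 22 mature coordinates, keeping multi-mapping reads and masking variants. Per the labels Pladienolide B was at 500 µM, whereas the methods give 1 µM. The deposited counts hold reads, covered T positions and conversions per miRNA, the deposited CPM values are reads scaled to a library total of 1000000, and the deposited fraction is conversions over covered T. Total reads per library ranged from 1522210 to 3880241, and intervals and the limit of 3 conversions cover counting error only.

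Members, gene lists and comparisons were chosen with earlier results of these data known. Reads were tested with edgeR's quasi-likelihood test (4.0.16, R 4.3.3; TMM) over all 12 libraries, and conversions with log covered T as offset, on the 143 miRNAs of the Initial miRNA Dataset, or 537 passing filterByExpr for arms under 100 CPM. P-values were adjusted by Benjamini-Hochberg (threshold 0.05) over all miRNAs tested, and scripts were tested on simulated data. Named miRNAs were the members, the other arms of their hairpins and the 5 miRNAs nearest to the pooled cluster in log2 rate (0.5 conversions added). Alternatives were DESeq2 (1.42.0), RLE size factors, reads with a conversion, other filters, 2 groups alone, a replicate block and leaving out each library. Same-numbered libraries came from the same experiment and deviated together (lowest r 0.274 over the 143 miRNAs), so the block pairs them. Group sizes are 4, and no 2 libraries held identical counts.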

Additional observations from a re-analysis of the deposited data

Results flagged for a closer look

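In 3 of 47 sets of 4 libraries, 1 library lay outside the limit of Dixon's test for the other 3. In each the other 3 libraries had no conversion, so that any conversion at all would have met the limit, and the usual chance rate of about 1 in 20 does not apply. They were the T>C conversion rate of miR-500a-3p in Control replicate 1 (0.0525%, from 2 conversions), that of miR-502-3p in Control replicate 1 (0.0662%, from 1 conversion) and that of miR-501-3p in PlaB replicate 2 (0.135%, from 2 conversions).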

How the results depend on the processing

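Of the 6 members over 100 CPM, 6 passed the test of a higher T>C conversion rate in DMSO than in Control. Under the 19 alternatives 4 to 6 passed (5 with the replicate block). The 5 members passing the test of a lower rate in PlaB than in DMSO became 1 with no filter on low counts. They became 2 among the 537 miRNAs passing filterByExpr and 1 without DMSO replicates 1 and 2. With single libraries left out they were 3 to 5, and with the replicate block 4. The first 2 of these settings test more miRNAs and the third uses fewer libraries. No member passed the test of a higher rate in PlaB than in Control, although the log2 fold changes of the 6 were 0.21 to 2.64. In DESeq2 1 passed, and 0 to 1 with single libraries left out. No member passed the test of changed reads in DMSO against Control. In DESeq2 1 passed and with the replicate block 1 (miR-362-5p), and 0 with any library left out. None of the 9 low members and other arms passed the test of a lower rate in PlaB. In DESeq2 3 passed, and 0 to 2 with single libraries left out. The cause of these differences between tools was not tested. Beyond these counts, the replicate block changed the single calls of miR-362-5p, miR-660-5p and miR-500b-3p, where the rate of miR-500b-3p in DMSO had an adjusted p of 0.301 with it, and it changed no other call. The pooled ratio of 0.109 ranged from 0.0508 (members weighted equally) to 0.184 (no subtraction of Control), and from 0.0651 (without PlaB replicate 3) to 0.135 with single libraries left out.

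In all, 10 log2 fold changes of reads near 0 changed sign. For DMSO against Control, miR-532-5p had -0.023 without DMSO replicate 1 (-0.023 to 0.16 with single libraries left out) and -0.050 without DMSO replicates 1 and 2, miR-532-3p -0.0089 without Control replicate 1 (-0.0089 to 0.28) and -0.013 without DMSO replicates 1 and 2, miR-500a-3p 0.021 without DMSO replicates 1 and 2, and miR-660-5p -0.029 without DMSO replicate 4 (-0.029 to 0.22). For PlaB against DMSO, miR-532-5p had 0.012 without DMSO replicate 1 and 0.034 without PlaB replicate 3 (-0.17 to 0.034), and 0.042 without DMSO replicates 1 and 2, and miR-660-5p had 0.032 without DMSO replicate 4 (-0.21 to 0.032). None of these passed the test. Among the 8 members, depth limits miR-188-5p and miR-532-3p most, with 1325 and 2229 covered T in DMSO.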
